A study of Mus musculus with 13 samples.

Results

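The genes described are the pacemaker channel gene Hcn4 and 6 calcium channel genes, Cacna1c, Cacna1d, Cacna1g, Cacna1h, Cacna2d1 and Cacna2d2, which are 7 of the 27998 genes in the matrices. They were taken by symbol, all 7 were found, and all 7 passed the filter on low counts in every comparison. The data are droplet-based single-cell RNA sequencing of wild-type C57Bl/6J mice, in which each transcript carries a unique molecular identifier (UMI) and each droplet a barcode. The groups were E8.5 embryos (1 matrix), E10.5 embryos (2 libraries), embryonic hearts of E12.5, of E14.5 and of E16.5 (2 libraries each) and hearts of postnatal day 3, P3 (1 matrix of pooled records). Head and limbs had been removed from the embryos, no animal was treated or carried an engineered allele, and the number of animals behind a library and the sex are not given in the sources used here. Barcodes with at least 2000 UMIs and at least 1% mitochondrial UMIs were kept, and those with Tnnt2, the gene of cardiac troponin T, at 1500 CPM (the standard scaling of counts by total UMIs) or more were taken as cardiomyocyte barcodes. At E8.5 and E10.5, where Tnnt2 was lower, the minimum was 500 CPM.

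The heartbeat starts in the sinoatrial node and is delayed in the atrioventricular node before it enters the ventricular conduction system. Hcn4 encodes the main channel of the pacemaker, or funny, current, a cation current that opens as the membrane becomes more negative and moves it back towards threshold. L-type calcium channels have a pore made by Cav1.2 (Cacna1c), which carries the calcium entry of the working myocyte, or by Cav1.3 (Cacna1d), which opens at more negative voltages and takes part in pacemaking. T-type channels, with the pores Cav3.1 (Cacna1g) and Cav3.2 (Cacna1h), open briefly at still more negative voltages. The alpha2delta subunits of Cacna2d1 and Cacna2d2 are bound to the outside of the pore and raise the number of channels at the surface. Tbx3 and Shox2 are transcription factors of the developing conduction tissue, Tbx3 in both nodes and the atrioventricular bundle and Shox2 in the sinus venosus and sinoatrial node.

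By the GENCODE annotation of GRCm38 (mm10), Hcn4 (ENSMUSG00000032338) lies at chr9:58823412-58863175 on the plus strand and Cacna2d2 (ENSMUSG00000010066) at chr9:107399612-107529343 on the plus strand. Cacna2d1 (ENSMUSG00000040118) is at chr5:15934691-16374511 on the plus strand. Cacna1c (ENSMUSG00000051331) is at chr6:118587240-119196418 and Cacna1d (ENSMUSG00000015968) at chr14:30039939-30491455, both on the minus strand. Cacna1g (ENSMUSG00000020866) spans chr11:94408391-94474198 and Cacna1h (ENSMUSG00000024112) chr17:25374285-25433783, also on the minus strand. The span of Cacna1c overlaps Dcp1b, that of Cacna1d overlaps Dcp1a and Chdh, and that of Cacna1h overlaps Tpsg1, each on the other strand. The promoters of Hcn4 and Cacna2d2 are shown because these genes had the largest excess in barcodes with Tbx3 or Shox2. RefSeq (GRCm38.p6) places them at chr9:58822699-58822998 and chr9:107399630-107399929, plus strand, from 250 bases before to 50 after the start, and capitals mark the GC box GGGCGG on either strand.
Hcn4: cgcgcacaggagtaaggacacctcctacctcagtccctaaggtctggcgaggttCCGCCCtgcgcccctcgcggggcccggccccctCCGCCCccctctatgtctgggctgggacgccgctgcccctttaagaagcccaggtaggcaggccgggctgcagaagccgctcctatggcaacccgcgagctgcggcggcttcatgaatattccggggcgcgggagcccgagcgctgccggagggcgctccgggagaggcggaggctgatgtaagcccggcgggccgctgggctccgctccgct
Cacna2d2: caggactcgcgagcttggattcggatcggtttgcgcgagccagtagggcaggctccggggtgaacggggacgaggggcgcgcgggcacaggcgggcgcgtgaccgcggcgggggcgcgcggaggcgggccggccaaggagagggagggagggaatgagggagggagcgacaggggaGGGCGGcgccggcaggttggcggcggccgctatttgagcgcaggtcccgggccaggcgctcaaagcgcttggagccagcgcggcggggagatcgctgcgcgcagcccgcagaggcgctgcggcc
The GC box was in 35.63% of 32817 promoter windows, and in both of these. The T-box core GGTGTG, searched on both strands and held by 19.05% of windows, was in neither, nor in any of the 8 windows listed for 5 of the 7 genes. No measurement of binding or chromatin was analysed here, so these matches describe letters only. Their GC content was 71.7% for Hcn4 and 75.7% for Cacna2d2.

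Between 151 and 7145 barcodes per matrix were cardiomyocyte barcodes, namely 151 at E8.5, 191 and 201 in the E10.5 libraries, 1733 and 2311 in those of E12.5, 2836 and 2390 in those of E14.5, 3607 and 3482 in those of E16.5 and 7145 at P3, with medians of 13940 to 25403 UMIs. Summed over 7 cardiomyocyte markers, the level was 9368 to 33771 CPM in these barcodes. In barcodes with Tnnt2 below 500 CPM, here called other barcodes, the sum was 23.8 to 828 CPM. Tnnt2, which set both groups, is among the 7, so part of this gap was fixed in advance. Barcodes of at most 100 UMIs, which hold free RNA, had Tnnt2 at 2724 to 5649 CPM in the hearts and at 25.7 to 84.3 CPM in the embryos. At E10.5, 24 and 21 cardiomyocyte barcodes had at least 2 UMIs of the skeletal muscle regulators Myog, Myod1, Myf5 and Myf6, and without them the same 5 members were called between E10.5 and E12.5. The 45 pairs of matrices shared 14 to 181 barcode sequences, where random draws from all possible barcodes would give 21.9 to 193.

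**Figure D1:**
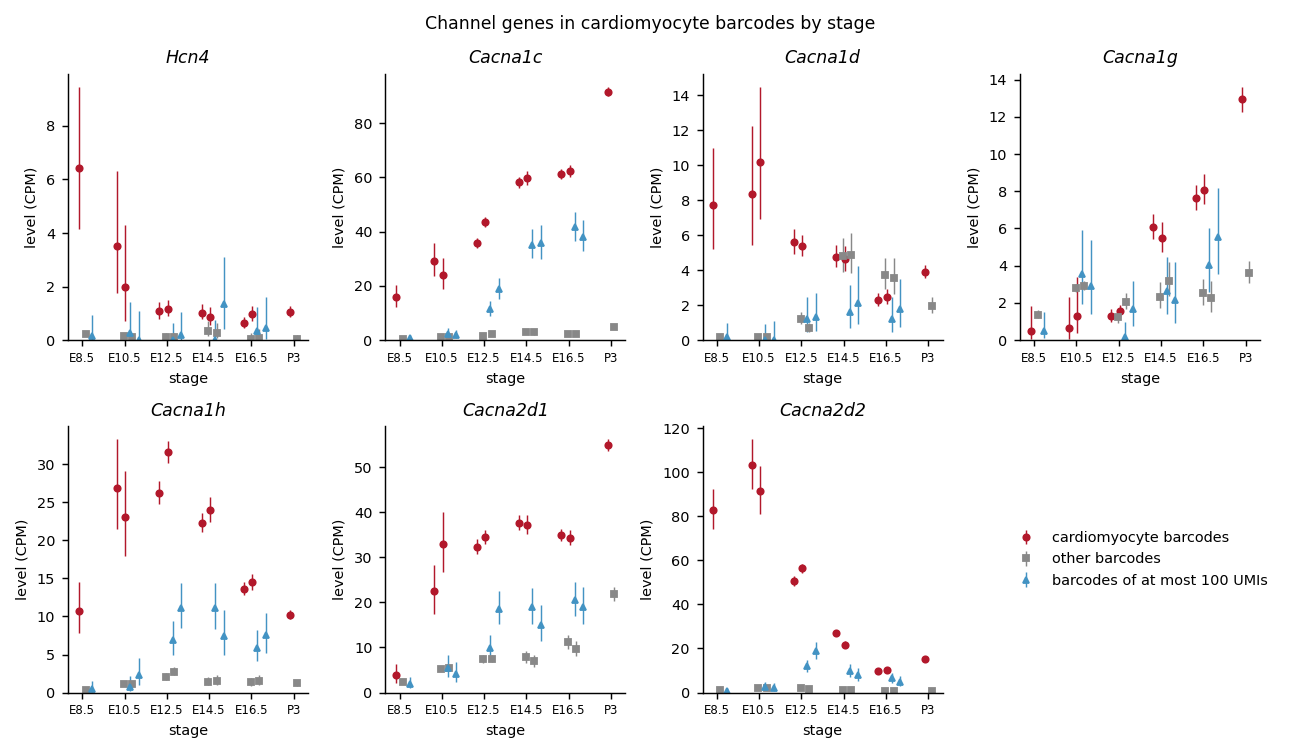
Level in CPM (vertical axes) of each gene by stage (horizontal axes) in cardiomyocyte barcodes, other barcodes and barcodes of at most 100 UMIs, 1 point per library with exact 95% Poisson intervals. Cacna1c rose and Cacna2d2 fell from E10.5 to E16.5, while Hcn4 lay between 0.63 and 1.16 CPM from E12.5 on.

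Hcn4 was read at a low level at every stage. Its level in cardiomyocyte barcodes was 6.41 CPM at E8.5 (25 UMIs, exact 95% Poisson interval 4.15 to 9.46), 3.52 and 1.97 CPM at E10.5, 1.08 and 1.16 CPM at E12.5, 1.03 and 0.854 CPM at E14.5, 0.63 and 0.969 CPM at E16.5 and 1.05 CPM at P3. Both E10.5 libraries were higher than all later ones, but they rest on 11 and 6 UMIs. Between E10.5 and E12.5 Hcn4 fell by 1.18 ± 0.43 (SE) on the log2 scale (adjusted p = 0.0322), and without E10.5 replicate 1 the difference was -0.70 with an adjusted p of 0.438. It also missed the threshold without E12.5 replicate 1 (adjusted p = 0.0606), without E12.5 replicate 2 (adjusted p = 0.0575), without the expected doublets (-0.48, adjusted p = 0.526) and in high-Myl2 barcodes (-0.75, adjusted p = 0.533). At Tnnt2 of 3000 CPM or more it turned to 7.83 (adjusted p = 0.589), where E10.5 keeps 16 and 26 barcodes. The later steps, of -0.22 ± 0.25 to E14.5 and -0.09 ± 0.26 to E16.5, were within the spread, so E12.5, E14.5 and E16.5 have no order. Only 1.06% to 2.71% of cardiomyocyte barcodes in the hearts had an Hcn4 UMI, against 0.0639% to 0.429% of other barcodes. Thinned to 2000 UMIs per barcode, the shares were 0.15% to 0.276%.

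Over all cardiomyocyte barcodes, the L-type pore genes went in opposite directions from E10.5 to E16.5. Cacna1c, the working-myocyte gene, was at 15.9 CPM at E8.5, 29.2 and 24.0 CPM at E10.5, 35.8 and 43.6 CPM at E12.5, 58.2 and 59.8 CPM at E14.5, 61.2 and 62.3 CPM at E16.5 and 91.7 CPM at P3. No library of an earlier tested stage reached one of a later stage. Cacna1c rose at each step, by 0.69 ± 0.13 (adjusted p = 0.000243), 0.58 ± 0.08 (adjusted p = 1.53e-05) and 0.27 ± 0.07 on the log2 scale (adjusted p = 0.00833). The first step was 0.068 at Tnnt2 of 3000 CPM or more (adjusted p = 0.914) and 0.44 in barcodes high in the ventricular gene Myl2 alone (adjusted p = 0.0802), and the last was 0.25 without E14.5 replicate 1 (adjusted p = 0.0994). Free RNA held Cacna1c at 35.2 and 35.9 CPM at E14.5 and 41.8 and 38.2 CPM at E16.5, whereas other barcodes of these libraries had 2.32 to 2.83 CPM. Cacna1d, the low-voltage L-type gene, had 8.33 and 10.2 CPM at E10.5, 5.62 and 5.38 CPM at E12.5, 4.77 and 4.61 CPM at E14.5 and 2.31 and 2.46 CPM at E16.5, with 7.69 CPM at E8.5 and 3.91 CPM at P3. It fell by 0.64 ± 0.20 on the log2 scale to E12.5 (adjusted p = 0.0137) and by 0.78 ± 0.12 to E16.5 (adjusted p = 7.33e-05). Its step to E14.5 was -0.22 ± 0.11 with an adjusted p of 0.153, and at Tnnt2 of 3000 CPM or more it was -0.56 (adjusted p = 0.00159). The first step missed the threshold in 4 alternatives, at -0.47 without E10.5 replicate 2 (adjusted p = 0.243), -0.59 without the expected doublets (0.054), -0.69 in high-Myl2 barcodes (0.247) and -1.08 at Tnnt2 of 3000 CPM (0.248). In low-Myl2 barcodes, defined below, Cacna1d averaged 11.9 CPM at E10.5, 15.3 at E12.5, 20.2 at E14.5 and 10.8 at E16.5. This course was not tested, and the group was most of the cardiomyocyte barcodes at E10.5 but a small part of them from E12.5 on.

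Over all cardiomyocyte barcodes, the T-type genes also moved apart. Cacna1g was almost unread early, with 2 UMIs at E8.5 (0.513 CPM), 2 and 4 UMIs at E10.5 (0.641 and 1.32 CPM) and 1.30 and 1.54 CPM at E12.5. It was then at 6.07 and 5.49 CPM at E14.5, 7.65 and 8.08 CPM at E16.5 and 12.9 CPM at P3. The 4 libraries of E14.5 and E16.5 all lay above the E12.5 libraries, and the rises were 2.03 ± 0.13 (adjusted p = 4.57e-09) and 0.63 ± 0.10 on the log2 scale (adjusted p = 7.93e-05). The step from E10.5 to E12.5 was 0.67 ± 0.49 with an adjusted p of 0.341. Cacna1h had 10.8 CPM at E8.5, 26.9 and 23.0 CPM at E10.5, 26.3 and 31.6 CPM at E12.5, 22.3 and 24.0 CPM at E14.5, 13.7 and 14.48 CPM at E16.5 and 10.2 CPM at P3. E10.5 and E12.5 overlapped, with a difference of 0.33 ± 0.13 (adjusted p = 0.0518) that passed the threshold in 5 of 18 alternatives, with adjusted p down to 0.00905 without E12.5 replicate 1. Cacna1h fell by 0.32 ± 0.08 on the log2 scale to E14.5 (adjusted p = 0.00393) and by 0.52 ± 0.08 to E16.5 (adjusted p = 5.61e-05). Without E14.5 replicate 1 its E14.5 step was -0.26 with an adjusted p of 0.0921.

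Of the alpha2delta genes, Cacna2d2 fell at each tested step. It had 82.8 CPM at E8.5, 103 and 91.4 CPM at E10.5, 50.6 and 56.4 CPM at E12.5, 26.8 and 21.7 CPM at E14.5, 9.60 and 10.4 CPM at E16.5 and 15.3 CPM at P3. The stages from E10.5 to E16.5 did not overlap, and Cacna2d2 fell by 0.75 ± 0.10 (adjusted p = 9.75e-06), 1.12 ± 0.08 (adjusted p = 2.05e-08) and 1.09 ± 0.09 (adjusted p = 5.46e-08) on the log2 scale. The share of cardiomyocyte barcodes with a Cacna2d2 UMI, thinned to 2000 UMIs, went from 20.2% and 16.4% at E10.5 to 1.67% and 1.97% at E16.5, and unthinned from 56.5% and 47.8% to 6.32% and 6.15%. Cacna2d1 had 3.85 CPM at E8.5, 22.4 and 32.9 CPM at E10.5, 32.3 and 34.4 CPM at E12.5, 37.7 and 37.2 CPM at E14.5, 34.9 and 34.4 CPM at E16.5 and 54.9 CPM at P3. In the skeletal-muscle-marker barcodes of E10.5 it was at 125 and 187 CPM, and without them E10.5 had 10.4 and 16.1 CPM. Its rise to E12.5 was 0.39 ± 0.13 on the log2 scale with them (adjusted p = 0.0218) and 1.47 ± 0.15 without them (adjusted p = 7.27e-07). With them it was 0.14 without E10.5 replicate 1 (adjusted p = 0.498) and 0.079 without the expected doublets (adjusted p = 0.686), 0.0033 under the study's mitochondrial ceiling (adjusted p = 0.989) and 0.72 at Tnnt2 of 3000 CPM (adjusted p = 0.219). The later steps of 0.18 ± 0.08 (adjusted p = 0.0907) and 0.09 ± 0.08 (adjusted p = 0.382) missed the threshold. Under the study's mitochondrial ceiling both passed, at 0.199 (adjusted p = 0.0408) and 0.236 (adjusted p = 0.0104), as did the first without E10.5 replicate 2 (adjusted p = 0.0414). By the CPM above, Cacna2d1 was lower in both E16.5 libraries than in both E14.5 libraries, against the sign of the fit. The fits scale library totals by TMM, and the CPM levels do not.

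Counted over the 7 genes, 2 rose and 3 fell from E10.5 to E12.5, where 23% of all 14810 genes tested rose and 19.9% fell. From E12.5 to E14.5, 2 rose and 2 fell, against 18% and 15.6% of all genes. From E14.5 to E16.5, 2 rose and 3 fell, against 19.6% and 18.9% of all genes. A change was called where edgeR's quasi-likelihood p, adjusted by Benjamini-Hochberg over all genes, was below 0.05. Stage was tied to the dissected tissue between E10.5 and E12.5, and these cannot be told apart there. The Tnnt2 minimum differed there too, except in the alternative with 3000 CPM at all stages. That alternative keeps 16 and 26 barcodes at E10.5 and called Cacna2d2 alone of the members. The summed level of the atrial markers in cardiomyocyte barcodes went from 15018 and 16180 CPM at E10.5 to 5634 and 5601 CPM at E16.5 and that of the ventricular markers from 3672 and 4425 CPM to 29838 and 29043 CPM. The part of these markers in the stage steps was not tested. In barcodes of high Myl2 alone, a group defined below, Cacna2d2 fell at each step by 1.40, 1.47 and 1.21 on the log2 scale. Cacna1g rose there by 2.19 to E14.5 and 0.84 to E16.5. In low-Myl2 barcodes, the other group, Cacna2d2 averaged 113, 194, 196 and 77.1 CPM at E10.5, E12.5, E14.5 and E16.5. Cacna1g averaged 0.854, 3.42, 15.2 and 7.45 CPM and Cacna1h 22.8, 42.1, 43.5 and 25.4 CPM. The stage steps in low-Myl2 barcodes were not tested. This group was 115 of 191 and 118 of 201 cardiomyocyte barcodes at E10.5, and 272 of 1733 and 347 of 2311 at E12.5. It is thus not the same part of the cardiomyocyte barcodes at each stage.

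As a mean over the 3 embryonic heart stages, all 7 genes were called higher in cardiomyocyte than in other barcodes, where 41.6% of 15639 genes tested were higher and 43.9% lower. Cacna1c had 35.8 to 62.3 CPM in the cardiomyocyte sums and 1.57 to 2.83 CPM in the others, a log2 difference of 4.69 ± 0.07 (adjusted p = 2.38e-17). Cacna2d2 differed by 4.46 ± 0.09, Cacna1h by 3.81 ± 0.08, Hcn4 by 3.07 ± 0.26 and Cacna2d1 by 2.27 ± 0.05. The smallest differences were those of Cacna1g, 1.05 ± 0.12, and Cacna1d, 0.82 ± 0.10. For Cacna1d the groups crossed, since other barcodes had 4.78 and 4.87 CPM at E14.5, next to 4.77 and 4.61 CPM, and 3.73 and 3.56 CPM at E16.5, above the 2.31 and 2.46 CPM of the cardiomyocyte barcodes. Its excess in cardiomyocyte barcodes was that of E12.5 alone, where their level was 4.59 and 7.54 times that of the others. Cacna1g overlapped at E12.5, where other barcodes had 1.25 and 2.05 CPM and cardiomyocyte barcodes 1.30 and 1.54 CPM. Against endothelial barcodes alone, those of the others with Pecam1 and Cdh5, the differences were 3.86 for Cacna1d and 3.596 for Cacna1g, with Cacna1d at 0.15 to 0.41 CPM in the endothelial sums.

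Chambers were set by Sln, an atrial regulator of the calcium pump, against Myl2, the ventricular myosin light chain, with at least 2 UMIs and a ratio of 2. This rule left 29 and 45 atrial barcodes at E12.5, and free RNA held Myl2 at 11410 to 16682 CPM in the embryonic hearts. A second rule, added after the data had been seen, called barcodes low in Myl2 where Myl7, the atrial light chain, had 2 or more UMIs and at least 4 times those of Myl2. It found 272 and 347 barcodes in the E12.5 libraries, 240 and 159 in those of E14.5 and 283 and 294 in those of E16.5. The summed atrial markers were 31133 to 43952 CPM in its low-Myl2 barcodes and 2411 to 12400 CPM in its high-Myl2 barcodes. Myl7, which set this rule, is among these markers, so part of this gap was fixed in advance. Most low-Myl2 barcodes of E12.5 were ventricular by the Sln rule, which left 29 and 45 atrial and 52 and 66 undetermined. At E16.5 the Sln rule found 237 and 238 atrial barcodes, next to the 283 and 294 low in Myl2. The part of this mismatch in the chamber differences and their change was not tested. Levels below are those of the second rule, and tests are given for both. At E10.5 the Sln rule is void, because its 19 and 21 atrial barcodes had skeletal muscle regulators at 1343 and 1161 CPM.

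**Figure D2:**
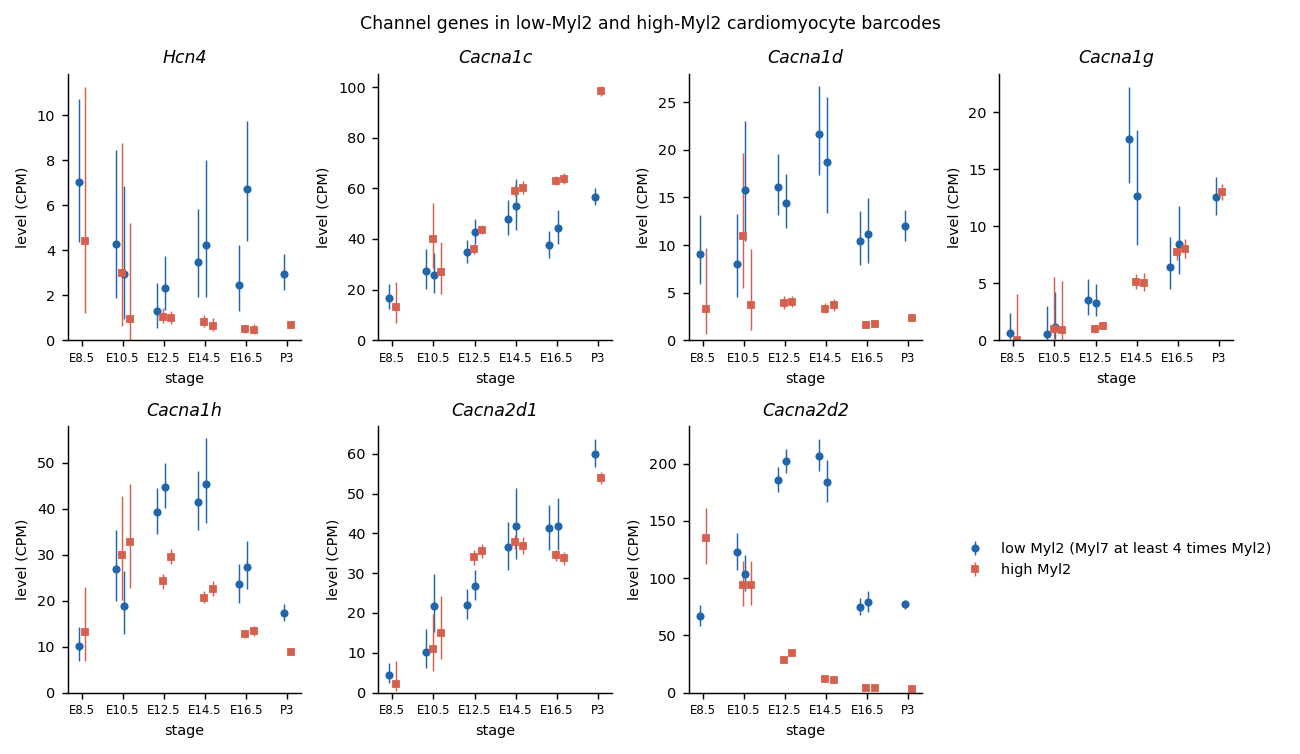
Level in CPM (vertical axes) of each gene by stage (horizontal axes) in low-Myl2 and high-Myl2 cardiomyocyte barcodes, 1 point per library with exact 95% Poisson intervals. From E12.5 on, Cacna2d2, Cacna1d and Cacna1h lie higher in the low-Myl2 barcodes of every library.

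Cacna2d2 had the widest chamber difference. Low-Myl2 barcodes held it at 186 and 202 CPM at E12.5, 207 and 184 CPM at E14.5 and 74.9 and 79.2 CPM at E16.5, and high-Myl2 barcodes at 28.7 and 34.4, 11.5 and 11.2, and 4.26 and 4.33 CPM. At P3 the values were 76.9 and 3.25 CPM. The groups did not overlap at any of these stages, and the log2 difference over the 3 embryonic heart stages was 3.45 ± 0.07 by the Sln rule (adjusted p = 4.71e-24) and 3.47 ± 0.05 by the Myl7 rule. It widened between E12.5 and E16.5 by 1.51 ± 0.15 on the log2 scale (adjusted p = 1.17e-07), and by 1.54 ± 0.13 under the Myl7 rule. All cardiomyocyte barcodes of E16.5 held Cacna2d2 at 1.49 and 2.14 times its free RNA level, and the high-Myl2 levels there were below free RNA. The part of free RNA was not tested. At E8.5 the order of the Myl2 groups was the other way, with 66.9 CPM in 119 low-Myl2 and 135 CPM in 32 high-Myl2 barcodes of the single matrix. The Sln rule called 95 of these 151 barcodes ventricular, so many were both low in Myl2 and ventricular. The Myl2 groups of E8.5 therefore give no order of chambers.

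Cacna1d and Cacna1h were also higher on the atrial side. Cacna1d had 16.1 and 14.4 CPM at E12.5, 21.6 and 18.8 CPM at E14.5 and 10.45 and 11.2 CPM at E16.5 in low-Myl2 barcodes, and 1.64 to 4.01 CPM in all 6 high-Myl2 sums. The difference was 2.0997 ± 0.18 on the log2 scale by the Sln rule (adjusted p = 3.30e-10) and 2.24 ± 0.09 by the Myl7 rule, and it widened from E12.5 to E16.5 by 1.28 ± 0.34 (adjusted p = 0.0224) and 0.75 ± 0.21 (adjusted p = 0.0248). Under the Sln rule this change missed the threshold whichever of the 4 libraries of E12.5 and E16.5 was left out, with values of 1.02 to 1.49 and adjusted p of 0.0876 to 0.247, and over both rules it passed in 8 of 15 alternatives. Cacna1h had 23.6 to 45.5 CPM against 12.8 to 29.6 CPM and was higher on the low-Myl2 side in each of the 6 libraries. Its difference was 0.71 ± 0.10 by the Sln rule (adjusted p = 1.64e-06) and 0.70 ± 0.07 by the Myl7 rule (adjusted p = 3.15e-08). Its change from E12.5 to E16.5 was 0.47 ± 0.23 (adjusted p = 0.296) and 0.30 ± 0.15 (adjusted p = 0.233).

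Hcn4 had 1.29 and 2.34 CPM at E12.5, 3.48 and 4.22 CPM at E14.5 and 2.47 and 6.71 CPM at E16.5 in low-Myl2 barcodes, and 1.05 and 0.98, 0.82 and 0.64, and 0.48 and 0.46 CPM in high-Myl2 barcodes. Low-Myl2 barcodes were higher in each library, and the difference was 1.94 ± 0.46 by the Sln rule (adjusted p = 0.00133) and 1.97 ± 0.25 by the Myl7 rule (adjusted p = 2.18e-06). Under the Sln rule the call was lost without E12.5 replicate 1 (1.53, adjusted p = 0.167), without E14.5 replicate 1 (1.53, adjusted p = 0.178) and with a ratio of 5 and 5 UMIs (2.25, adjusted p = 0.0819). The change of the Hcn4 difference from E12.5 to E16.5 was 2.01 ± 0.78 by the Sln rule (adjusted p = 0.155) and 2.33 ± 0.55 by the Myl7 rule (adjusted p = 0.00727). Cacna1g had 3.55 and 3.30 CPM at E12.5, 17.6 and 12.7 CPM at E14.5 and 6.46 and 8.45 CPM at E16.5 in low-Myl2 barcodes, against 0.94 and 1.25, 5.10 and 5.04, and 7.73 and 8.05 CPM. Its excess in low-Myl2 barcodes at E12.5 and E14.5 was not seen at E16.5, where the groups overlapped. Under the Myl7 rule the difference over the stages was 0.89 ± 0.12 (adjusted p = 4.73e-06), and it narrowed by 1.72 ± 0.31 (adjusted p = 0.000883). Under the Sln rule Cacna1g had 0 UMIs in both atrial E12.5 sums, which allows up to 4.43 and 3.74 CPM, so no fold is given for that rule. Tbx3 or Shox2 was present in 86 of 272 and 121 of 347 low-Myl2 barcodes at E12.5. The counts were 64 of 240 and 36 of 159 at E14.5, and 39 of 283 and 31 of 294 at E16.5. In high-Myl2 barcodes they were 150 of 1460 and 213 of 1959, 147 of 2583 and 117 of 2219, and 94 of 3311 and 59 of 3181. The part of these markers in the Cacna1g difference was not tested.

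Cacna1c was lower on the atrial side by both rules, but missed the threshold with a ratio of 5 and 5 UMIs. It had 37.4 and 44.5 CPM in low-Myl2 and 63.1 and 63.9 CPM in high-Myl2 barcodes at E16.5 and 56.8 and 98.5 CPM at P3, while at E12.5 the values of 34.8 and 42.8 CPM overlapped with 36.0 and 43.7 CPM. The difference was -0.45 ± 0.09 by the Sln rule (adjusted p = 0.000251), -0.33 with a ratio of 5 (adjusted p = 0.111) and -0.47 ± 0.06 by the Myl7 rule. Its change from E12.5 to E16.5 was -0.68 ± 0.24 by the Sln rule (adjusted p = 0.114), -0.67 with the library as a block (adjusted p = 0.0266) and -0.61 ± 0.14 by the Myl7 rule (adjusted p = 0.00748), and over both rules it passed in 5 of 15 alternatives. Cacna2d1 had 21.9 and 26.8 CPM against 34.0 and 35.6 CPM at E12.5 and 41.2 and 42.0 CPM against 34.5 and 33.7 CPM at E16.5. The order of the chambers was thus opposite at those stages in all 4 libraries. The change in the difference was 0.77 ± 0.23 (adjusted p = 0.0425) by the Sln rule and 0.79 ± 0.13 (adjusted p = 0.000338) by the Myl7 rule. Under the Sln rule it missed the threshold whichever of the 6 libraries was left out, with adjusted p of 0.0922 to 0.479, and in DESeq2, with 0.0929, and over both rules it passed in 2 of 15 alternatives, with -0.11 at a ratio of 5 (adjusted p = 0.981). The mean difference of Cacna2d1 over the stages was -0.17 ± 0.09 (adjusted p = 0.144) and -0.22 ± 0.05 (adjusted p = 0.0025), and -0.23 by the Sln rule with no mitochondrial minimum (adjusted p = 0.0366).

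By the Sln rule 4 of the 7 genes were higher and 1 lower in atrial sums, where 15.1% of 13627 genes tested were higher and 21.9% lower. By the Myl7 rule 5 were higher and 2 lower, against 24.6% and 26.5%. These 2 include Cacna2d1, whose CPM was higher in low-Myl2 barcodes of both E16.5 libraries. The chamber difference grew in the atrial direction between E12.5 and E16.5 for 3 genes by the Sln rule, against 3.76% of all genes in that direction and 1.77% in the other. By the Myl7 rule 4 moved in the atrial and 2 in the ventricular direction, against 6.86% and 5.27%. The summed sinus venosus markers were 75.4 to 207 CPM in low-Myl2 and 23.2 to 29.8 CPM in high-Myl2 barcodes of the embryonic hearts, and their part in the chamber differences was not tested.

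At least 1 UMI of Tbx3 or Shox2 was seen in 236 and 334 cardiomyocyte barcodes of the E12.5 libraries, 211 and 155 of E14.5, 134 and 90 of E16.5 and 330 of P3, besides 48 of E8.5 and 65 and 53 of E10.5. In these barcodes Hcn4 had 2.26 and 2.85 CPM at E12.5, 7.52 and 4.91 CPM at E14.5, 5.14 and 16.6 CPM at E16.5 and 7.41 CPM at P3. Barcodes without either marker had 0.904 and 0.87, 0.525 and 0.578, 0.433 and 0.438, and 0.671 CPM. Hcn4 was higher with a node marker in each library, by 3.01 ± 0.25 on the log2 scale over the 3 heart stages (adjusted p = 8.62e-09). E16.5 replicate 2 was the highest, with 27 UMIs in 90 barcodes (exact 95% Poisson interval 10.9 to 24.1 CPM). In each heart library, part of the Hcn4 UMIs lay in the few barcodes with both markers, whose levels are given below. Before the hearts, Hcn4 stood at 10.0 against 4.39 CPM at E8.5 and at 6.71 and 4.91 against 1.56 and 0.899 CPM at E10.5, on 2 to 14 UMIs a group.

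**Figure D3:**
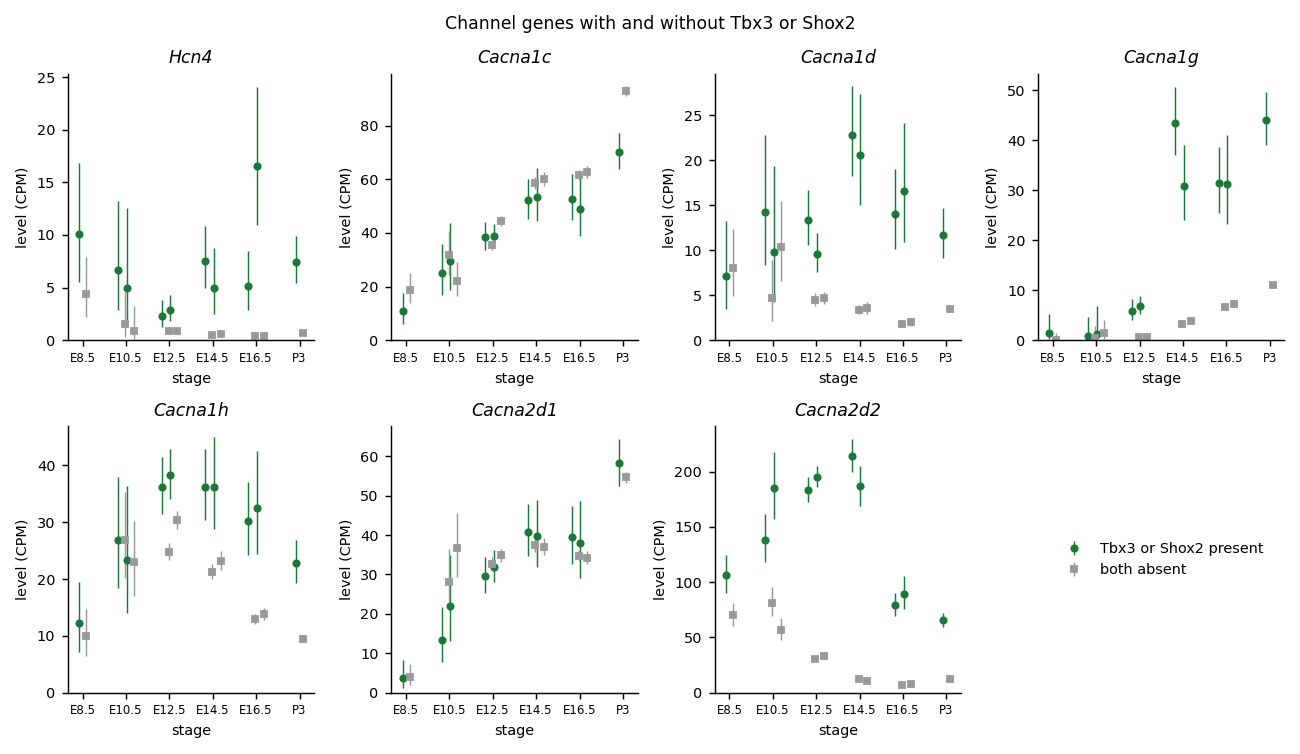
Level in CPM (vertical axes) of each gene by stage (horizontal axes) in cardiomyocyte barcodes with and without a UMI of Tbx3 or Shox2, 1 point per library with exact 95% Poisson intervals. Cacna1g separates from E12.5 on and is at 43.5 and 30.8 against 3.15 and 3.77 CPM at E14.5.

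Cacna1g was close to unread with or without the markers at E10.5 and separated in the hearts. With a marker it had 5.90 and 6.82 CPM at E12.5, 43.5 and 30.8 CPM at E14.5, 31.5 and 31.3 CPM at E16.5 and 44.2 CPM at P3, and without one 0.62 and 0.636, 3.15 and 3.77, 6.61 and 7.29, and 11.1 CPM. The groups did not overlap within a stage, and the difference was 2.84 ± 0.12 on the log2 scale (adjusted p = 2.38e-13). The share of barcodes with a Cacna1g UMI at E16.5 was 37.3% and 36.7% with a marker, against 10.3% and 8.64% without. Thinned to 2000 UMIs these shares were 6.78% and 8.95%, against 1.25% and 1.42%, so the order was the same at equal depth. Cacna1d had 13.4 and 9.55, 22.8 and 20.5, and 14.1 and 16.6 CPM with a marker and 4.47 and 4.67, 3.36 and 3.53, and 1.79 and 1.98 CPM without, a difference of 2.15 ± 0.11 (adjusted p = 1.19e-11). At E10.5 its groups overlapped, with 14.3 and 9.82 against 4.67 and 10.3 CPM.

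Cacna2d2 differed by the most on this scale, 3.26 ± 0.06 (adjusted p = 5.77e-19). It had 184 and 195 CPM at E12.5, 214 and 187 CPM at E14.5 and 79.2 and 89.5 CPM at E16.5 with a marker, and 30.8 and 32.7, 12.2 and 10.49, and 6.56 and 7.72 CPM without. At E8.5 and E10.5 it was already higher with a marker, at 106 against 69.9 CPM and at 138 and 185 against 81.4 and 57.1 CPM. Cacna1h had 30.2 to 38.3 CPM with a marker and 12.9 to 30.4 CPM without, and was higher in each of the 6 libraries, by 0.62 ± 0.07 (adjusted p = 1.01e-06). Cacna1c was lower, by -0.33 ± 0.06 (adjusted p = 0.00027), though not in E12.5 replicate 1, where it had 38.5 against 35.4 CPM. Thinned to 5000 UMIs per barcode its difference was -0.28 with an adjusted p of 0.163. In low-Myl2 barcodes alone the Cacna1c difference turned to 0.14. Cacna2d1 had 29.7 to 40.8 against 32.7 to 37.5 CPM and a difference of -0.11 ± 0.05 that missed the threshold (adjusted p = 0.127). The difference was -0.56 in the fit of all barcodes with Shox2 (adjusted p = 0.000312) and -0.22 with at least 2 marker UMIs (adjusted p = 0.0305). The ratio of Cacna2d1 CPM with to without a marker was 0.908 and 0.919 at E12.5. At E14.5 it was 1.09 and 1.07 and at E16.5 1.13 and 1.11, so only the ratios of E12.5 have the sign of the fit. The fit scales library totals by TMM, and these ratios do not. In all, 5 of the 7 genes were higher and 1 lower with a marker, where 14.6% of 13910 genes tested were higher and 15.6% lower.

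**Figure D4:**
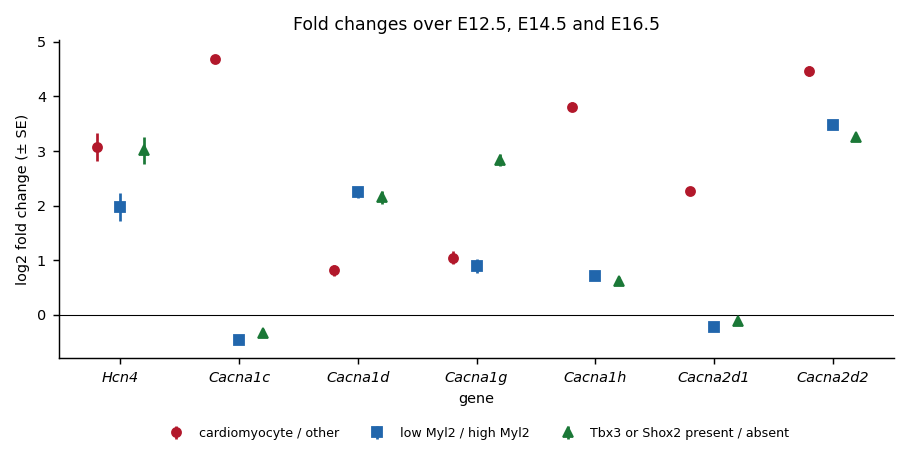
Log2 fold change with its standard error (vertical axis) of the 7 genes (horizontal axis) over E12.5, E14.5 and E16.5 for cardiomyocyte against other barcodes, low against high Myl2, and Tbx3 or Shox2 present against absent. Cacna1g stands at 2.84 for the node markers and 0.89 for the chamber, and Cacna1c is below 0 in both.

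The barcodes with Tbx3 or Shox2 differed from the rest in other markers too. Their summed fibroblast markers were 333 and 428 CPM at E16.5, against 75.5 and 49.7 CPM, and at E12.5 43.9 and 56.1 against 31.9 and 35.8 CPM. Their endothelial markers were 55.2 and 183 against 24.0 and 28.0 CPM at E16.5. Their part in the differences was not tested. The other barcodes, pooled over cell types, held Hcn4 at 0.0485 to 0.342 CPM, Cacna1g at 1.25 to 3.20 CPM, Cacna2d2 at 0.776 to 2.16 CPM, Cacna1d at 0.713 to 4.87 CPM and Cacna1h at 1.36 to 2.76 CPM. Within low-Myl2 barcodes alone, Hcn4 was higher with a marker by 3.58 ± 0.43, Cacna1g by 3.08 ± 0.23, Cacna2d2 by 2.12 ± 0.08, Cacna1d by 1.79 ± 0.15 and Cacna1h by 0.86 ± 0.11, and Cacna2d1 was lower, at -0.45 ± 0.12. Within high-Myl2 barcodes Cacna1g differed by 2.83 ± 0.14, Cacna2d2 by 2.78 ± 0.11, Hcn4 by 2.17 ± 0.31, Cacna1d by 1.45 ± 0.19, Cacna1h by 0.26 ± 0.09 and Cacna1c by -0.37 ± 0.07. In atrial barcodes by the Sln rule alone, Cacna1d (2.03) and Cacna2d2 (1.61) passed the threshold, and Hcn4 (3.52 ± 1.502, adjusted p = 0.198), Cacna1h (0.56 ± 0.19, adjusted p = 0.096) and Cacna1c (-0.085, adjusted p = 0.893) did not, with the marker sum of E12.5 replicate 1 left out for its 7 barcodes. Cacna1g did not pass there either, and as both atrial E12.5 sums had 0 UMIs of it, no fold is given. Across the Myl2 groups, 5 genes were higher and 1 lower in each, against 7.84% and 10.8% of 10436 genes in the low-Myl2 and 8.71% and 10.2% of 13646 genes in the high-Myl2 barcodes. In low-Myl2 barcodes without a node marker at E16.5, Hcn4 stood at 0.666 and 1.39 CPM and Cacna1g at 2.22 and 3.34 CPM. These Cacna1g levels were below the 6.91 and 7.61 CPM of high-Myl2 barcodes without a marker, and also below free RNA. All cardiomyocyte barcodes of E16.5 held Cacna1g at 1.88 and 1.46 times its free RNA level, and the part of free RNA was not tested.

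The genes also differed by which marker was seen. In barcodes with Tbx3 but no Shox2, Cacna1g had 45.5 and 30.5 CPM at E14.5 and 37.2 and 35.6 CPM at E16.5, whereas in barcodes with Shox2 but no Tbx3 it had 9.81 and 12.7 CPM and 13.1 and 14.7 CPM. Cacna1d had the opposite order at E14.5, with 16.9 and 14.96 against 33.3 and 33.9 CPM. So did Cacna2d2, with 181 and 151 against 245 and 398 CPM at E14.5 and 146 and 146 against 252 and 300 CPM at E12.5. Hcn4 had 1.81 and 1.26 CPM at E12.5 with Tbx3 alone and 1.14 and 0.95 CPM with Shox2 alone, on few UMIs, and 2.79 and 9.56 against 8.18 and 14.7 CPM at E16.5. These barcodes with 1 marker were described and not tested against each other. Fits by 1 marker took all barcodes with it, also those with both markers, against barcodes with neither. At E12.5, 24 of the 66 and 35 of the 88 barcodes with Shox2 also had Tbx3. In these fits presence of Shox2 went with log2 differences of 4.05 ± 0.33 for Hcn4, 4.01 ± 0.09 for Cacna2d2, 3.00 ± 0.17 for Cacna1d and 2.50 ± 0.23 for Cacna1g. Presence of Tbx3 went with 3.04 ± 0.27, 3.15 ± 0.07, 2.01 ± 0.14 and 3.02 ± 0.12, in the same order.

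**Figure D5:**
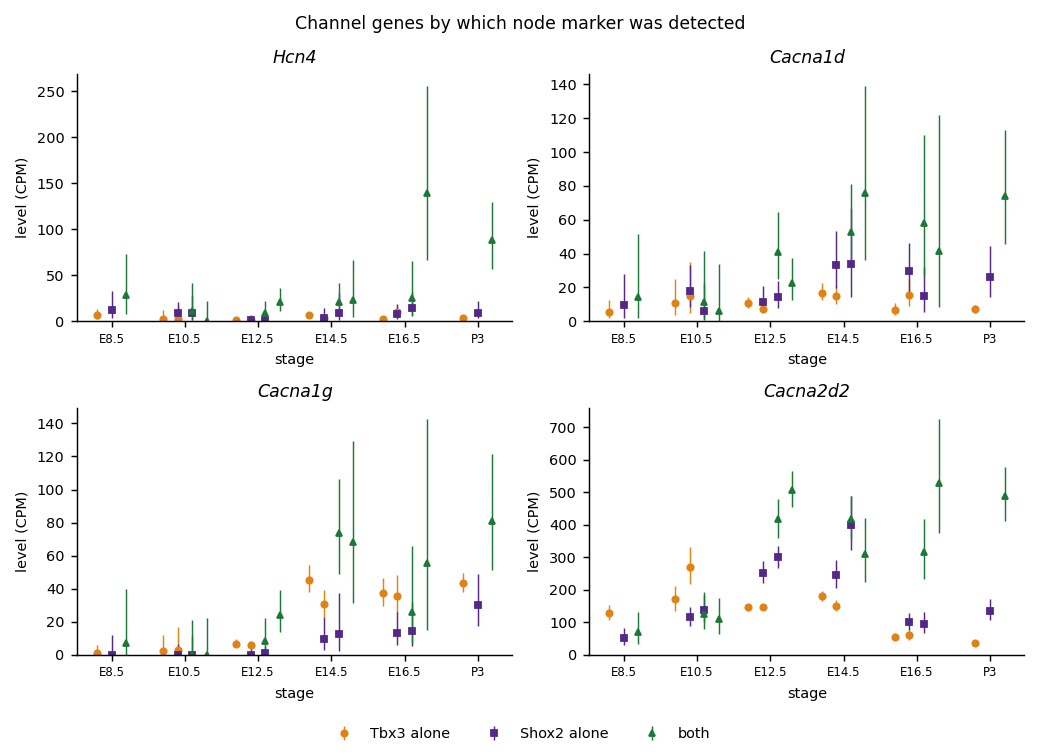
Level in CPM (vertical axes) of 4 genes by stage (horizontal axes) in cardiomyocyte barcodes with Tbx3 alone, Shox2 alone or both, 1 point per library with exact 95% Poisson intervals. The 5 to 35 barcodes with both markers in each heart library and the 15 at P3 have wide intervals, and Hcn4 there reaches 139 CPM in E16.5 replicate 2.

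Barcodes with both markers numbered 24 and 35 in the E12.5 libraries, 21 and 11 in those of E14.5, 7 and 5 in those of E16.5 and 15 at P3. Hcn4 had 8.67 and 21.2, 21.1 and 22.7, and 25.8 and 139 CPM in them, and 87.8 CPM at P3. Cacna2d2 had 416 and 507, 419 and 310, and 316 and 529 CPM, and 488 CPM at P3. Cacna1g had 80.8, Cacna1d 73.8 and Cacna1h 84.3 CPM in the 15 barcodes of P3, against 43.6, 7.06 and 19.7 CPM with Tbx3 alone. Hcn4 was seen in 3 of the 5 barcodes of E16.5 replicate 2 and in 6 of the 15 of P3, so a few barcodes set these levels.

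The share of barcodes with a node marker was also taken among the barcodes with a UMI of a channel gene. Tbx3 or Shox2 was present in 9 of 17 barcodes with Hcn4 at E8.5 and in 7 of 10 and 4 of 6 at E10.5, where 31.8% and, at E10.5, 34.0% and 26.4% of all cardiomyocyte barcodes had a marker. It was present in 25.5% and 29.3% of the barcodes with Hcn4 in the E12.5 libraries, 45.5% and 32.1% in those of E14.5, 32.5% and 43.2% in those of E16.5 and 29.5% at P3, where 2.58% to 14.45% of all cardiomyocyte barcodes had a marker at these embryonic stages. For Cacna1g the shares went from 51.1% and 54.2% in the E12.5 libraries through 38.8% and 29.5% in those of E14.5 to 12.2% and 10.1% in those of E16.5. The shares of all cardiomyocyte barcodes with a marker, given above, fell over the same stages. Over those stages Cacna1g without a marker went from 0.62 and 0.636 CPM to 6.61 and 7.29 CPM. Marker and channel UMIs are sparse, so a barcode without one need not lack the transcript. Free RNA held Hcn4 at 0 to 0.442 CPM in 5 of the 6 embryonic heart libraries and at 1.34 CPM in E14.5 replicate 2, on at most 5 UMIs each, next to 0.433 to 0.904 CPM in cardiomyocyte barcodes without a node marker. Other barcodes of these libraries held it at 0.0485 to 0.342 CPM. The part of free RNA in single Hcn4 UMIs was not tested.

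Of 23 other channel subunit genes, 8 passed the filter in the chamber and node fits. With a node marker, Cacnb3, a beta subunit, was higher by 1.36 ± 0.14 and Cacng6, a gamma subunit, was lower at -1.47 ± 0.11. In atrial against ventricular sums by the Sln rule Cacnb3 differed by 1.14 ± 0.22, Cacng6 by -2.81 ± 0.24 and Cacna1a by -0.52 ± 0.20. Cacnb2, the main beta subunit of the heart, rose at each stage step, by 0.45 ± 0.14, 0.54 ± 0.07 and 0.29 ± 0.06, as did Cacna1c. Of 13 list genes tested by stage, 1 rose and 6 fell to E12.5, 2 rose and 1 fell to E14.5, and 2 rose and 1 fell to E16.5. Over all genes these shares were 23% and 19.9%, 18% and 15.6%, and 19.6% and 18.9%. Summed skeletal muscle markers of the cardiomyocyte barcodes were 144 and 158 CPM at E10.5 and 0.247 and 0.199 CPM at E12.5, and neuron and glia markers 45.8 and 46.7 against 11.1 and 10.2 CPM, and their part was not tested. The falls to E12.5 were those of Cacng1 (-7.66 ± 0.89), Cacng4 (-3.59 ± 0.71), Cacna1b (-3.48 ± 0.98), Cacna1s (-2.46 ± 0.70), Cacnb1 (-1.27 ± 0.25) and Cacnb3 (-1.14 ± 0.22). Between cardiomyocyte and other barcodes, where 41.6% of all genes were higher and 43.9% lower, 5 of 14 were higher, among them Cacng6 (5.71 ± 0.11) and Cacnb2 (4.35 ± 0.09), and 8 were lower, among them the neuronal subunits Cacng8 (-5.77 ± 0.39) and Cacng7 (-5.39 ± 0.67). None of 8 passed edgeR's adjusted threshold for the change of the chamber difference, and Cacnb2 (-0.67 ± 0.27, adjusted p = 0.177) and Cacnb3 (0.99 ± 0.46, adjusted p = 0.263) had an unadjusted p below 0.05.

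Of 23 genes of the conduction system and its development other than Tbx3 and Shox2, 22 were tested with the node markers, of which 16 were higher and 2 lower, with a median difference of 1.199 against -0.02 over all genes. The 7 channel genes had a median of 2.15. The largest differences were those of Bmp2, an atrioventricular canal ligand (4.37 ± 0.11), Rspo3, a Wnt modulator (3.49 ± 0.10), Vsnl1, a calcium sensor of the sinoatrial node (3.40 ± 0.16), Smoc2 (3.29 ± 0.31), Cpne5 (2.77 ± 0.06) and Tbx2 (2.47 ± 0.15). Of the same list 15 were higher and 6 lower in atrial sums by the Sln rule, led by Vsnl1 (5.81 ± 0.12), Irx3 (-3.65 ± 0.26) and the potassium channel gene Kcnj3 (3.28 ± 0.10). From E14.5 to E16.5, 5 of 23 rose and 11 fell, including Isl1 (-2.66 ± 0.29), Rspo3 (-2.22 ± 0.11) and Bmp4 (-2.12 ± 0.21), while Hcn4 had -0.09 ± 0.26. The step to E12.5 gave 7 rises and 10 falls, and that to E14.5 gave 3 and 16. Between cardiomyocyte and other barcodes 13 of 22 were higher and 8 lower, and 9 moved their chamber difference in the atrial and 2 in the ventricular direction. Over all genes the shares higher and lower were 14.6% and 15.6% with the node markers, 15.1% and 21.9% for the chambers, 41.6% and 43.9% for cardiomyocyte barcodes and 3.76% and 1.77% for the chamber change, and those of the stage steps are given with the channel genes.

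Likeness of pattern was described by Pearson's r of log2(CPM + 1) over 32 sums of library, chamber by the Sln rule and node marker, among 7314 genes of at least 10 CPM on average. The sums share libraries and differ in depth, so r has no test. Cacna2d2 was nearest to Cpne5 (r = 0.98), Map1b (0.94) and Fbxo32 (0.93), and Cacna1h to Map1b (0.91), Nes (0.89) and Cacna2d2 (0.88). Cacna1d was nearest to Mast4, Ociad2 and Sdk2 (0.89, 0.88 and 0.88), Cacna1g to Kif1a, Limd1 and Ppargc1a (0.86, 0.80 and 0.80) and Hcn4 to Htra1, Aspscr1 and Nptn (0.82, 0.78 and 0.76). Cacna1c and Cacna2d1 had no close neighbour, at most 0.68 with Osbpl1a and 0.72 with 3425401B19Rik. Among the members r was 0.86 between Cacna1d and Cacna2d2 and 0.83 between Cacna1d and Cacna1h, 0.65 between Hcn4 and Cacna1g and 0.64 between Hcn4 and Cacna1d. Cacna2d1 and Cacna2d2 had -0.41.

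At P3 the barcodes of suffix 1 and suffix 2 in the pooled matrix differed for some members. Cacna1g had 9.80 CPM in the 4208 cardiomyocyte barcodes of suffix 1 and 20.9 CPM in the 2937 of suffix 2, and Cacna2d1 had 50.0 and 67.2 CPM. Cacna1c, at 92.2 and 90.4 CPM, and Hcn4, at 1.01 and 1.17 CPM, had overlapping counting intervals. With a node marker Cacna1g had 38.7 and 71.2 CPM, and without one 7.77 and 19.2 CPM, so its excess was present under both suffixes. The medians were 19007 and 10398 UMIs per barcode. P3 entered no test, since it is 1 pooled matrix and the labels tie no suffix to a library or an animal.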

How the data were processed

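Per the labels, cells of wild-type mice at 6 stages were captured with 10x Genomics chemistry. The authors deposited whole-number UMI counts per gene and barcode, not normalized, aligned to mm10, with headers of Cell Ranger 3.1.0 (P3: 3.0.0), while the submitters' processing notes name Cell Ranger 2.1.1 and Seurat 3.1.1. The labels and the paper name different digestion enzymes and kit versions. The P3 matrix was already filtered, to 10964 barcodes, and the embryonic ones list all possible barcodes. The first E8.5 library is not used here, and E16.5 replicate 1 joins 2 records.

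Counts were summed per library and class and tested with edgeR 4.0.16 (quasi-likelihood, TMM, filterByExpr, R 4.3.3), adjusted by Benjamini-Hochberg over all genes tested at 0.05. The stage fit holds the 8 libraries of E10.5 to E16.5, and the other fits hold 12 sums of the 6 heart libraries, with contrasts averaged over 3 stages. Standard errors are the log2 fold change divided by the square root of F. Levels in CPM carry no TMM scaling, so a small difference can have another sign in the fits. DESeq2 1.42.0 and other alternatives were run. Libraries are taken as replicates, and nothing says that they came from separate animals, so p-values measure the spread between libraries, which may be technical. Intervals (exact Poisson) and limits for 0 UMIs (3 counts) cover counting error only. Doublets were kept, and an alternative removed the number that the loading predicts, 3.19% to 9.70% of barcodes. On simulated counts of 14368 genes, the fit of E12.5 against E10.5 recovered 72% of 100 genes changed 2-fold and 100% of 100 changed 4-fold. The changed genes lay above a minimum mean level and all genes had the same dispersion. This recovery therefore does not cover genes as low as Hcn4.

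Members and gene lists were chosen with earlier results of these data known. All 7 members are named in each comparison, and list genes are named where called, at most 6 with the largest change. Neighbours are the 3 genes of highest r. The result of 1 list gene is not reported here.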

Additional observations from a re-analysis of the deposited data

Results flagged for a closer look

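The atrial against ventricular difference changed between E12.5 and E16.5 for 3 genes, tested as an interaction in edgeR with adjustment over 13627 genes. The change was 1.51 for Cacna2d2, 1.28 for Cacna1d and 0.77 for Cacna2d1 on the log2 scale. It passed the threshold in 15 of 15 alternatives for Cacna2d2, in 8 for Cacna1d and in 2 for Cacna2d1, whose change was -0.11 with a ratio of 5 and 5 UMIs. At E12.5 the Sln rule rests on 29 and 45 atrial barcodes. In each fit that left out an E12.5 or E16.5 library the Cacna2d2 change passed alone.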

How the results depend on the processing

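The number of members called stayed within 1.5 times that reported for cardiomyocyte against other barcodes and for the steps to E14.5 and E16.5, under all alternatives run. For E12.5 against E10.5 the count of 5 members became 1 with Tnnt2 at 3000 CPM or more, 2 in high-Myl2 barcodes and 2 without the expected doublets, and ranged from 3 to 6 when 1 library was left out. For the chambers the count of 5 became 3 with a ratio of 5 and 5 UMIs, where Hcn4 and Cacna1c missed the threshold. The change of the chamber difference had 3 members called, and 6 by the Myl7 rule, 1 with a ratio of 5 and 5 UMIs, 1 under the study's mitochondrial ceiling and 1 to 2 without 1 library. With node markers the count of 6 became 2 in atrial barcodes alone, where the marker sum of E12.5 replicate 1 was left out for its 7 barcodes. Cacna1d and Cacna2d2 passed there, and Hcn4 (3.52, adjusted p = 0.198), Cacna1h (0.56, adjusted p = 0.096) and Cacna1c (-0.085, adjusted p = 0.893) did not. Cacna1g did not pass either, with 0 UMIs in both atrial E12.5 sums, so no fold is given.

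Directions turned in 11 of the fits of single genes. Hcn4 in E12.5 against E10.5 was 7.83 at Tnnt2 of 3000 CPM, where E10.5 keeps 16 and 26 barcodes, and Cacna1h was -0.039 in high-Myl2 barcodes. Hcn4 turned to 0.059 for E14.5 at Tnnt2 of 3000 CPM, and to 0.08 and 0.22 for E16.5 without E14.5 replicate 1 and without E16.5 replicate 1, in a range of -0.38 to 0.22 with 1 library left out. By the Myl7 rule Cacna1g was 0.89 for the chamber and -1.72 for its change, where the Sln rule had 0 atrial UMIs at E12.5. With a ratio of 5 Cacna2d1 was 0.083 for the chamber and -0.11 for its change. With node markers, Cacna2d1 was 0.013 in high-Myl2 and Cacna1c 0.14 in low-Myl2 barcodes. Where none is given, the cause was not tested. Replicate numbers of different stages name libraries only, while sums of 1 library are paired by that library. The replicate block, by number in the stage fit and by library in the others, changed the call of Cacna1h at E12.5 (0.32, adjusted p = 0.0421) and of Cacna1c in the chamber change (-0.67, adjusted p = 0.0266) and no other member's call. The node fit in undetermined barcodes alone was not run. Depth limits Hcn4, with 30 to 64 UMIs per heart library, and Cacna1g at E10.5, with 2 and 4 UMIs. Over the alternatives, all genes called numbered 1213 to 6664, 2781 to 5334 and 3552 to 6205 for the stage steps, 2653 to 6963 for the chambers, 254 to 1652 for their change and 419 to 4910 for the node markers.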
